A study of Mus musculus with 6 samples.

Results

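The genes described here mark oligodendrocyte progenitors, the committed precursors that follow them and the transcription factors of that lineage. They are Pdgfra, Cspg4, Olig1, Olig2, Sox10, Sox8, Nkx2-2, Gpr17, Ptprz1 and Vcan. They were taken by name as a list and matched by their GENCODE M21 symbol to the gene identifiers of the count files. All 10 were found among 54532 identifiers, and all 10 were among the 16731 genes that passed the filter on low counts and were tested. The samples were whole brains of mice at postnatal day 14, with 1 RNA-seq library for each brain. The 3 controls had the genotype Mphosph8fl/+ with Nestin-Cre+, and the 3 mutants, labelled Mphosph8∆n, had Mphosph8fl/fl with Nestin-Cre+. All groups were Cre carriers on a C57BL/6J background. In the study's account of this experiment, however, controls are called Nestin-Cre+ with no mention of the floxed allele found in the labels. The labels are followed here, and whether each difference is against brains with 1 or 2 working alleles is not settled by these sources. Nestin-Cre is active in neural progenitors, from which neurons, astrocytes and oligodendrocytes descend, and Cre removes exon 4 of the floxed gene. Microglia descend from a different lineage.

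Mphosph8 encodes MPP8, a subunit of the HUSH complex that silences genes at chromatin bearing histone H3 lysine 9 trimethylation. From immunoblots of nuclei sorted from wild-type brains, the study reports MPP8 almost only in neurons and not in other brain cells. The comparison asks which transcripts differ when that subunit is lost in the nervous system. Libraries held between 12956880 and 15223424 counts. Mphosph8 itself stood at 58.4 ± 11.3 CPM (counts scaled to a common effective library size) in the 3 controls and at 28.9 ± 3.63 CPM in the 3 mutants (mean ± SD), and its edgeR adjusted p was 0.000157. Control replicate 3 had 3641 counts of 4 Y-linked genes and 27 of Xist, while the other libraries had at most 1 count of the former and at least 11130 of Xist. The labels used here give no sex, while the study states that its experiments used littermates matched for age and sex. By these counts the groups were not matched for sex, since control replicate 3 alone had the Y-linked pattern. The sex of the brains and their genotype were not separated in the fit. With that library left out, the log2 fold changes of the 10 genes ran from -0.34 (Sox10) to 0.26 (Ptprz1) with a median of -0.11.

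Oligodendrocytes arise from dividing progenitors that carry the PDGF receptor PDGFRα and the proteoglycan NG2 on their surface. Progenitors that leave the cell cycle pass through a brief stage marked by the receptor GPR17, then switch on the genes of myelin. OLIG2 and SOX10 act from the specification of the lineage onwards, SOX10 is also needed for the activation of myelin genes, and NKX2-2 takes part in the step from progenitor to differentiating cell. In the mouse brain the weeks after birth are a time of active myelination.

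Olig1 and Olig2, as well as Sox8 and Sox10, are pairs of related genes, so the stretch of 50 coding bases in which each pair is most alike is shown first, since 50 bases is the length of a read and decides whether counts of the 2 genes can be told apart. Capitals mark the bases that differ within a pair. The Olig stretches, which encode part of the basic helix-loop-helix domain, begin at coding base 403 of Olig1 (GRCm38 chromosome 16, plus strand, 91269772 to 91271933) and at coding base 430 of Olig2 (chromosome 16, plus strand, 91225457 to 91228677).
Olig1: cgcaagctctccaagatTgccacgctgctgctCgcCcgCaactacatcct
Olig2: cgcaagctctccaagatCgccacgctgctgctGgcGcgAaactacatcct

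The Sox stretches, which encode part of the DNA-binding HMG box, begin at coding base 285 of Sox8 (chromosome 17, minus strand, 25565892 to 25570686) and at coding base 300 of Sox10 (chromosome 15, minus strand, 79154908 to 79165240).
Sox8: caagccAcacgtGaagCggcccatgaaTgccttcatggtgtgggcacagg
Sox10: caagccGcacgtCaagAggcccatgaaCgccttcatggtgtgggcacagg

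In both pairs 46 of 50 bases were identical and 4 differed. No 50-base word of the transcripts of Olig1, Olig2, Sox8, Sox10, Nkx2-2, Gpr17, Cspg4 or Vcan occurred in an annotated transcript of another gene. The share was 0.12% for Pdgfra and 0.077% for Ptprz1. Olig1 consists of a single exon and lies 41.1 kb beyond the end of Olig2, which has 2 exons. Parts of the exons of Pdgfra (622 bases), Sox8 (329), Nkx2-2 (278), Gpr17 (188) and Olig1 (157) lie opposite exons of genes on the other strand. For the strand setting of the counting, the value is not given in the sources used here. In those stretches reads of the partner gene cannot be told apart by the files alone.

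Per kilobase of exon, the 10 genes spanned a wide range of levels in control brains. Olig1 was highest at 140 ± 11.4 CPM per kb (SD, n = 3), followed by Gpr17 at 79.3 ± 6.67 and Ptprz1 at 46.2 ± 7.46. Sox8 (25.5 ± 0.209), Olig2 (25.3 ± 1.84) and Sox10 (24.4 ± 2.45 CPM per kb) came next, and neighbours among these 3 overlapped between libraries. Pdgfra stood at 13.2 ± 1.27 CPM per kb, apart from those above and below it. Nkx2-2 (5.67 ± 0.730), Vcan (4.90 ± 0.897) and Cspg4 (4.51 ± 0.322) were lowest and also overlapped with their neighbours in the order.

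None of the 10 genes passed an edgeR adjusted p of 0.05 over all genes tested. DESeq2 and limma-voom also put 0 of them past it. At an unadjusted p under 0.05, edgeR put 2 genes lower, Sox10 and Gpr17, and 0 higher. Across all genes tested, 0.628% passed the adjusted threshold, 0.532% as higher and 0.0956% as lower, and 0.359% passed it with a change of more than 2-fold. At an unadjusted p under 0.05 in edgeR, 2.41% were lower, and 685 of the 16731 were higher. The log2 fold changes of the 10 genes, mutant against control, ran from -0.29 to 0.13 with a median of -0.13. The median over all genes tested was -0.0073. The estimate was negative for 8 genes and positive for Pdgfra and Ptprz1. For 3 genes, Sox10, Olig2 and Sox8, every mutant library lay below every control library, and for 0 the reverse was seen, against 5.42% and 6.23% of all genes tested. The first count was 5 without control replicate 1 and 5 without control replicate 3, where fewer libraries have to be apart. The share over all genes tested was not computed with a library left out, so these counts have no background to be read against.

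**Figure D1:**
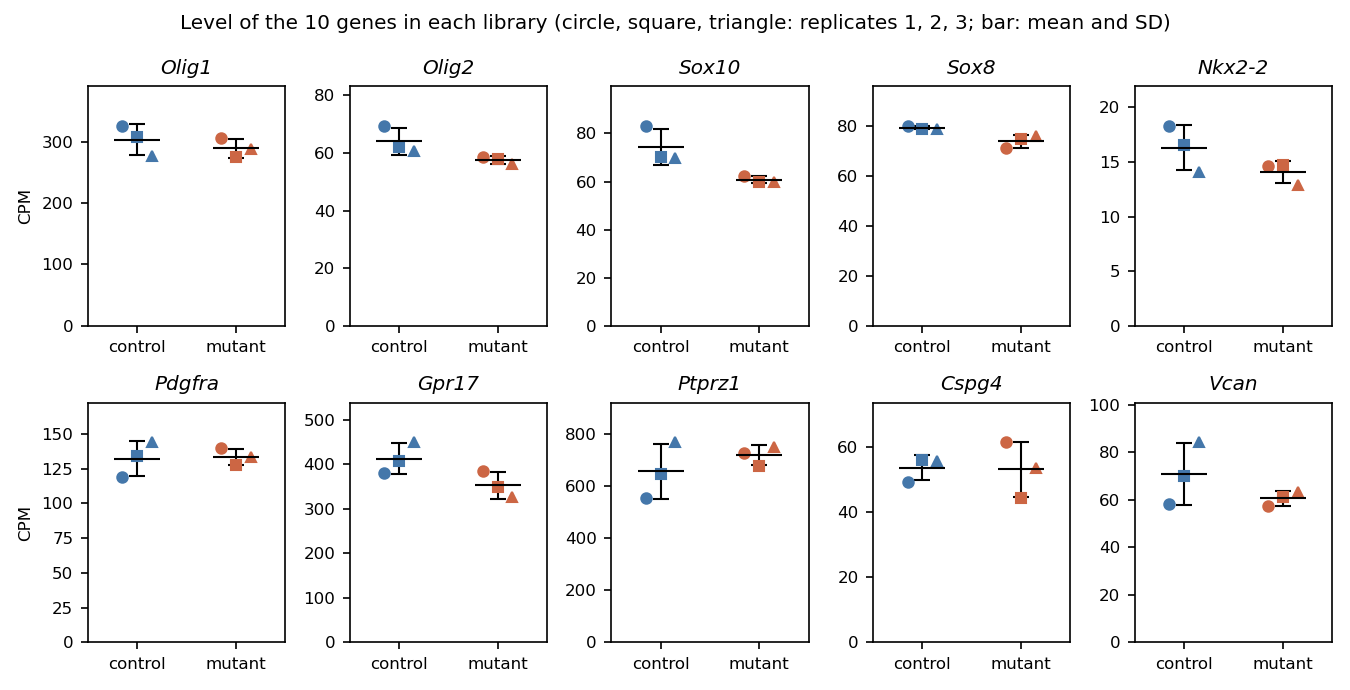
Level in CPM (vertical axes, from 0) of the 10 genes in the 3 control and 3 mutant libraries, with a symbol for each replicate and the mean and SD as bars. Sox10 shows the clearest step, with all mutant libraries at 59.8 to 62.4 CPM and all control libraries at 70.0 CPM or above, while Pdgfra and Cspg4 overlap fully.

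Among the transcription factors, Sox10 had the largest difference. It stood at 83.1, 70.3 and 70.0 CPM in control replicates 1, 2 and 3, and at 62.4, 60.0 and 59.8 CPM in the mutants. The mutant libraries were close to each other and below all controls, and control replicate 1 was the highest library. The mutant mean was 81.6% of control, or -0.29 ± 0.09 as a log2 fold change with its SE. The 95% interval for this gene taken alone was a 0.720- to 0.924-fold level, and the edgeR adjusted p was 0.21. When control replicate 1 was left out, the estimate was -0.21 and the edgeR adjusted p 0.731.

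Olig2, which specifies the lineage, followed the same arrangement with a smaller step. It was at 69.3, 62.1 and 60.7 CPM in control and at 58.7, 58.0 and 56.1 CPM in mutant libraries, which did not overlap. On the log2 scale the difference was -0.15 ± 0.08 (SE), and edgeR gave an adjusted p of 0.824. It was -0.093 without control replicate 1, the highest library. Its neighbour Olig1, a helix-loop-helix factor that promotes differentiation and repair of myelin, was at 325, 308 and 277 CPM in control and at 305, 275 and 289 CPM in mutant libraries. The groups overlapped, the log2 difference was -0.068 ± 0.086 and the adjusted p from edgeR was 0.962. Single libraries moved this estimate, to -0.016 without control replicate 1, -0.032 without mutant replicate 2, -0.11 without mutant replicate 1 and -0.13 without control replicate 3. The difference between the 2 neighbouring genes was not tested.

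Sox8, a close relative of Sox10, had the tightest control values, 80.1, 79.0 and 79.0 CPM. Its mutant values of 71.2, 74.9 and 76.0 CPM lay just below these. Expressed as log2, this was -0.10 ± 0.08 (SE), for which edgeR gave an adjusted p of 0.913. Nkx2-2, the homeodomain factor (chromosome 2, minus strand, 147177546 to 147194243), was the gene with the fewest counts. It was at 18.3, 16.6 and 14.1 CPM in control and 14.6, 14.7 and 12.9 CPM in mutant libraries, with overlap through control replicate 3. Its log2 difference of -0.21 ± 0.12 (SE) had an edgeR adjusted p of 0.867 and a 95% interval from a 0.720- to a 1.03-fold level. The estimate was -0.12 when control replicate 1 was left out and -0.31 when control replicate 3 was.

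Of the receptors, Pdgfra, which binds the mitogen PDGF-A and defines the progenitor (chromosome 5, plus strand, 75152292 to 75198215), had nearly equal means in both groups. It stood at 119, 134 and 144 CPM in control and 140, 127 and 133 CPM in mutant libraries, and the control values enclosed the mutant values. Its log2 difference was 0.012 ± 0.084 (SE), and the adjusted p from edgeR was 0.996. The 95% interval, a 0.892- to 1.14-fold level, leaves room for a modest difference in either direction. The sign turned without control replicate 1 (-0.061) and without mutant replicate 1 (-0.022), and without control replicate 3 the estimate was 0.079.

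Gpr17, the receptor of committed precursors (chromosome 18, minus strand, 31942997 to 31949636), was lower on average. Control libraries had 380, 407 and 449 CPM and mutant libraries 385, 348 and 325 CPM. The groups overlapped only through mutant replicate 1, which lay just above control replicate 1. The mutant mean was 85.7% of control, a log2 difference of -0.22 ± 0.09 (SE). For the gene alone the 95% interval was a 0.748- to 0.981-fold level, while edgeR's adjusted p was 0.646. Leaving out mutant replicate 1 gave -0.29 and an edgeR adjusted p of 0.195, and leaving out control replicate 3 gave -0.16.

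Ptprz1, a receptor phosphatase whose shed form is the proteoglycan phosphacan and which astrocytes and radial glia also make (chromosome 6, plus strand, 22875502 to 23052916), had the largest positive estimate. It was at 557, 648 and 769 CPM in control and at 729, 680 and 753 CPM in mutant libraries. The controls were widely spread and enclosed every mutant library. As log2 the difference was 0.13 ± 0.11 (SE), at an adjusted p of 0.926 by edgeR. It was 0.024 without control replicate 1 and 0.26 without control replicate 3.

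Of the chondroitin sulfate proteoglycans, Cspg4, which encodes NG2 and is also made by pericytes (chromosome 9, plus strand, 56865033 to 56899870), had no detectable difference. It was at 49.3, 56.2 and 55.7 CPM in control and 61.5, 44.5 and 53.7 CPM in mutant libraries, where the mutants held both the highest and the lowest value. The log2 difference of -0.015 ± 0.105 (SE) had an adjusted p of 0.996 by edgeR, and its 95% interval was a 0.849- to 1.15-fold level. The sign became positive when control replicate 2 (0.017), control replicate 3 (0.013) or mutant replicate 2 (0.097) was left out, and leaving out mutant replicate 1 gave -0.13.

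Vcan, which encodes the large matrix proteoglycan versican (chromosome 13, minus strand, 89655312 to 89742509), was at 58.2, 70.1 and 84.2 CPM in control and at 57.3, 61.2 and 63.3 CPM in mutant libraries. The controls spanned the mutant values apart from mutant replicate 1, which was lowest. The estimate was -0.22 ± 0.11 (SE) on the log2 scale, with 0.767 as the edgeR adjusted p. It was -0.079 when control replicate 3 was left out and -0.35 when control replicate 1 was.

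Several of these genes are shared with other cells, so markers of those cells were read beside them. Pericyte markers summed to between 578 and 680 CPM in control and between 532 and 617 CPM in mutant libraries, with 0 of 7 past the adjusted threshold in edgeR, DESeq2 or limma-voom and 0 of 7 at an unadjusted p under 0.05. In that list Kcnj8, a channel subunit, had the largest log2 fold change (0.21) and Higd1b the smallest (-0.18). Fibroblast markers, whose cells also carry Pdgfra and Vcan, summed to between 356 and 419 CPM in control and between 290 and 458 CPM in mutant libraries. All 6 had negative estimates, from -0.18 (Col3a1) to -0.077 (Col1a1, both collagen chains), with 0 of 6 past either threshold by edgeR and 0 past the adjusted one by DESeq2 or limma-voom. Astrocyte markers summed to between 4800 and 5402 CPM in control and between 5042 and 5795 CPM in mutant libraries, with 0 of 7 past the adjusted threshold by any of the 3 tools and 1 at an unadjusted p under 0.05. Their estimates ran from -0.24 (Gfap, an intermediate filament) to 0.26 (Aldh1l1, a folate enzyme). The part of these cells in the values of the shared genes was not tested.

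The genes of neighbouring stages were described from 3 further lists. None of 10 other progenitor genes passed the adjusted threshold by edgeR, DESeq2 or limma-voom. At an unadjusted p under 0.05 in edgeR, 1 was higher, against 685 of all 16731 genes tested. The median log2 fold change of these 10 was 0.036, and the highest was 0.19 for Cacng4, an auxiliary subunit of AMPA receptors. Of 9 committed precursor genes that were matched, 7 had negative estimates, 5 had all mutant libraries below all controls and 4 were lower at an unadjusted p under 0.05. Over all genes tested, 5.42% had all mutant libraries below all controls and 2.41% were lower at that unadjusted limit. None of the 9 passed the adjusted threshold in the main edgeR fit or by limma-voom, and DESeq2 passed 1, Enpp6, named here after its values were seen. With no filter on low counts edgeR passed Enpp6 and Nkx6-2, and without mutant replicate 1 it passed Enpp6. Their median was -0.19, from 0.096 (Tcf7l2, a Wnt effector) to -0.55 (Nkx6-2, a homeodomain factor). Nkx6-2 was at 14.8, 12.4 and 9.79 CPM in control and 9.60, 9.03 and 6.76 CPM in mutant libraries, with an edgeR adjusted p of 0.269.

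Of 14 myelin genes, 5 fell by the edgeR adjusted threshold and 0 rose, DESeq2 passed 8 and limma-voom 5. In 11 of the 14, all mutant libraries lay below all controls. Across all genes tested, 0.0956% fell by the edgeR adjusted threshold and 5.42% had all mutant libraries below all controls. The median log2 fold change of the 14 was -0.47. The 5 were Trf, which encodes the iron carrier transferrin, Mal and Mog, which encode proteins of the myelin membrane, Ugt8a, the enzyme that makes galactosylceramide, and Cldn11, the tight junction protein of myelin. Trf stood at 64.5 ± 7.15 CPM in the 3 controls and 39.3 ± 5.50 CPM in the 3 mutants. Its log2 difference was -0.72 ± 0.11 (SE), its edgeR adjusted p was 0.0013, and it passed under all 12 alternatives. Of the 3320 exonic bases of Trf, 2108 are shared with Gm20425 on the same strand. In all, 59.4% of its 50-base words occur in transcripts of other genes. The part of this sharing in its counts was not tested. The other 4 of the 5 were close to each other, from -0.53 for Mal (edgeR adjusted p 0.0241) to -0.49 for Cldn11 (0.0496). Mbp, whose product compacts the myelin membrane, was at -0.34 (edgeR adjusted p 0.471). It was among the 8 that DESeq2 passed, and all its mutant libraries lay below all controls. Aspa, an enzyme of acetate supply, was at 0.013 (edgeR adjusted p 0.996). The count past the threshold changed when a single library was left out, in fits with fewer brains. Leaving out mutant replicate 1 raised it to 9. It became 2 when either control replicate 3 or mutant replicate 2 was dropped, and 1 when any of the remaining libraries was. With the replicate number as a block it was 9. Over all genes tested, the count was 105 in the main fit, 162 without mutant replicate 1 and from 66 to 81 without another library. Under all 12 alternatives the estimates of the 5 stayed negative. Whether the changes in count came from single brains or from fewer libraries was not tested.

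**Figure D2:**
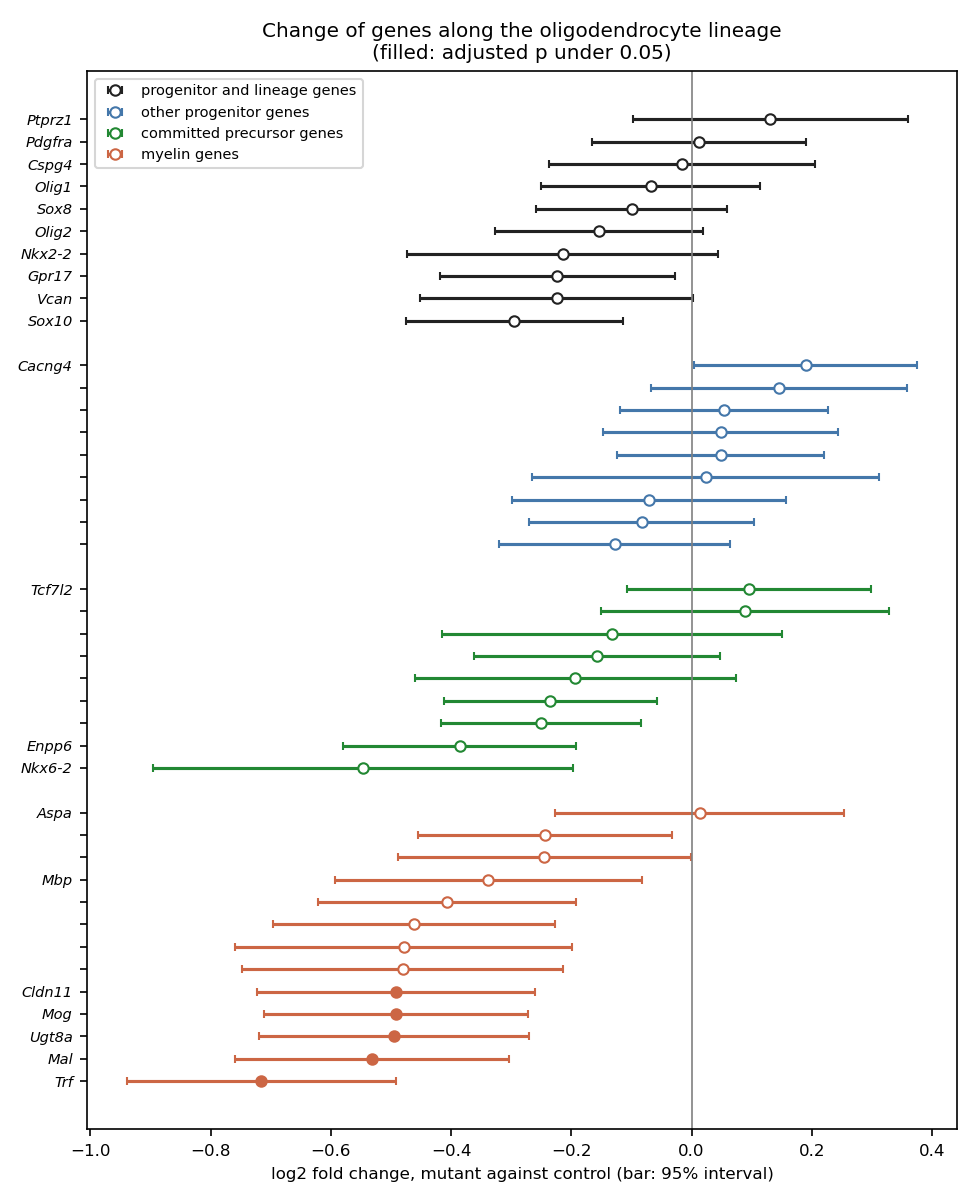
Log2 fold change of mutant against control (horizontal axis) with its 95% interval for tested genes of 4 lists (symbols are given for genes named in the text), from progenitor genes at the top to myelin genes at the bottom, with filled symbols for an adjusted p under 0.05. The medians of the full lists are -0.13 for the 10 genes described here, 0.036 for other progenitor genes, -0.19 for committed precursor genes and -0.47 for myelin genes, and filled symbols occur among myelin genes alone.

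Within a library, the ratio of 2 genes does not depend on the library size. It can still depend on differences between libraries by exonic length, described below. Gpr17 has 5.195 kb of exon and Pdgfra 10.024 kb, and the part of such differences in their ratio was not tested. The log2 ratio of Gpr17 to Pdgfra, in counts per kb, was 2.63, 2.55 and 2.59 in control and 2.41, 2.40 and 2.24 in mutant libraries. All mutant values lay below all control values, and the difference was -0.24. The exact permutation test (two-sided) returned p = 0.1, which is the lowest value that 3 libraries against 3 can reach. In whole-brain RNA, fewer cells of a stage and less RNA per cell cannot be told apart.

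**Figure D3:**
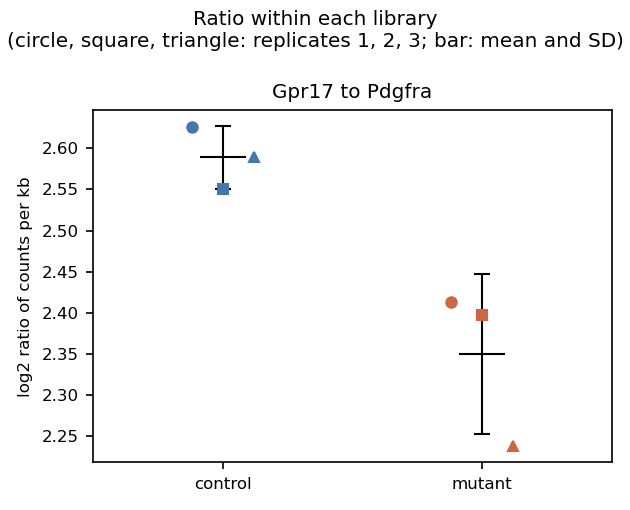
Log2 ratio of counts per kb (vertical axis, not starting at 0) of Gpr17 to Pdgfra within each library, with the mean and SD of 3 libraries as bars. The mutant mean is 2.35 against a control mean of 2.59, and all mutant libraries lie below all controls.

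Signals that act on the lineage were read next. Of the PDGF ligands and the sister receptor Pdgfrb, 0 of 5 passed either threshold by edgeR, and DESeq2 and limma-voom also passed 0 at the adjusted threshold. Pdgfa, the ligand of PDGFRα, was highest among them at 0.067 and Pdgfd lowest at -0.18. Of 11 ligands and matrix partners of the proteoglycans, 3 were lower at an unadjusted p under 0.05 in edgeR, against 2.41% of all genes tested. None of the 11 passed the adjusted threshold by the same 3 tools. They ranged from 0.071 (Bcan, the proteoglycan brevican) to -0.52 (Hapln2, a link protein of the nodes of myelinated axons). Hapln2 was at 15.9, 18.1 and 15.3 CPM in control and 8.72, 13.0 and 12.4 CPM in mutant libraries, with no overlap and an edgeR adjusted p of 0.155. It passed the adjusted threshold in edgeR with no filter on low counts.

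Among inhibitors of differentiation no gene reached a threshold, with 0 of 7 past either by edgeR and 0 past the adjusted one by DESeq2 or limma-voom. Their estimates ran from -0.28 (Hes1, an effector of Notch) to 0.12 (Id4, which sequesters helix-loop-helix factors). Of the relatives of the transcription factors, Olig3 and Nkx2-9 had too few counts to be tested. Sox9, the relative of Sox8 and Sox10 that astrocytes express, was at 50.8, 52.9 and 50.01 CPM in control and 58.3, 56.1 and 57.2 CPM in mutant libraries, with no overlap. Its log2 difference was 0.16 and the adjusted p from edgeR 0.801. Nkx6-1, a homeodomain factor, was at 0.15 (edgeR adjusted p 0.985), with at most 4.08 CPM in any library. Proliferation genes, as carried by dividing progenitors, numbered 0 of 10 past either threshold by edgeR and 0 past the adjusted one by DESeq2 or limma-voom. They ranged from -0.35 (Cdk1, the mitotic kinase) to 0.18 (Birc5, survivin). Their summed level was 98.3, 93.8 and 136 CPM in control and 103, 98.5 and 99.4 CPM in mutant libraries, and control replicate 3 stood above the rest.

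Controls differed among themselves in a way that followed exonic length for all of the 10 genes but Gpr17. The split by length was chosen after the values were seen. The 4 genes with exons of 10 kb and longer, Pdgfra, Cspg4, Ptprz1 and Vcan, were each lowest of the controls in control replicate 1. Of the 6 shorter genes, Olig1, Olig2, Sox10, Sox8 and Nkx2-2 were highest there, and Gpr17 was lowest. Over all tested protein-coding genes, the 1456 with at least 10 kb of exon had a median log2 deviation from the control mean of -0.084 in control replicate 1, 0.028 in replicate 2 and 0.056 in replicate 3. For the 3878 with at most 3 kb the medians were 0.091, -0.026 and -0.062. Sox10, Sox8 and Gpr17 have more than 3 kb of exon and lie outside this class. In mutant libraries the long genes lay between 0.0096 and 0.037 and the short genes between -0.052 and -0.013. The part of this library difference in the estimates of single genes was not tested. The median log2 fold change was 0.017 for the long and -0.045 for the short genes.

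**Figure D4:**
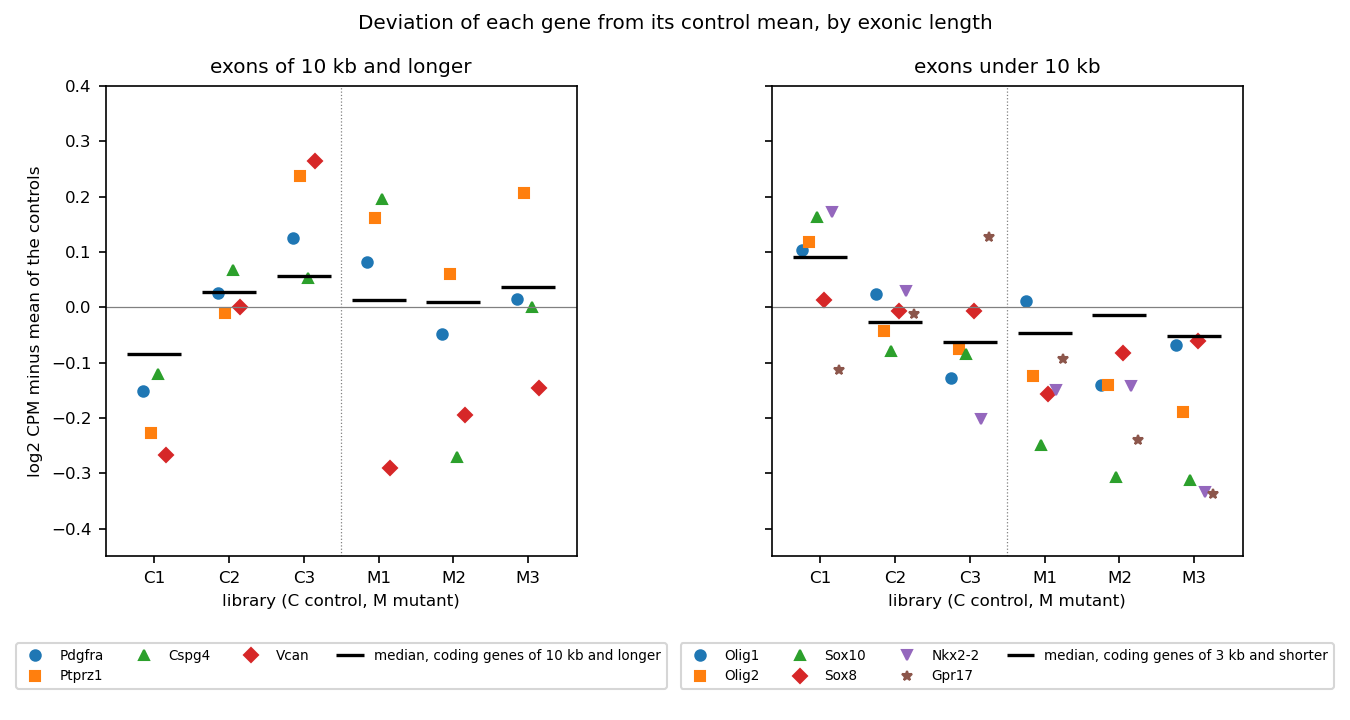
Log2 CPM minus the gene's control mean (vertical axes) in each library for the 4 genes with at least 10 kb of exon on the left and the 6 shorter genes on the right, with black bars for the median of all tested coding genes of at least 10 kb (left) or at most 3 kb (right). Control replicate 1 lies below 0 for all 4 long genes and above 0 for 5 of the 6 shorter ones.

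The tested genes outside the lists whose pattern over the 6 libraries was nearest to that of Sox10 were Pllp, Cd63, Cers2, Wdr83os and Arsg. Nearness was the root mean square difference of centred log2 CPM, which was from 0.025 for Pllp to 0.046 for Arsg. Pllp, which encodes the myelin protein plasmolipin, was at 120, 104 and 100.4 CPM in control and 94.4, 87.9 and 88.1 CPM in mutant libraries. Cers2, a ceramide synthase of very long acyl chains, was at 151, 135 and 135 CPM in control and 120, 115 and 108 CPM in mutant libraries. Because the 5 were picked for their likeness to Sox10 over the same libraries, their lower mutant values follow from the choice and are a description. Cd63 was at 109.5, 93.0 and 93.0 CPM in control and 86.1, 82.3 and 77.0 CPM in mutant libraries. Wdr83os was at 26.1, 23.0 and 24.2 CPM in control and 19.8, 19.4 and 20.1 CPM in mutant libraries. Arsg was at 19.1, 17.4 and 17.3 CPM in control and 15.7, 15.1 and 14.8 CPM in mutant libraries.

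Neuron and microglia markers were read in the same way. Of 8 neuron markers, 0 passed the adjusted threshold by edgeR, DESeq2 or limma-voom and 1 was higher at an unadjusted p under 0.05, with estimates from -0.16 (Snap25, a protein of vesicle fusion) to 0.21 (Gad2, an enzyme of GABA synthesis). Of 6 microglia markers, 0 passed by any of these and 0 at an unadjusted p under 0.05, with estimates from -0.035 (Tmem119) to 0.15 (Csf1r, the growth factor receptor of microglia).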

How the data were processed

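The authors selected polyA RNA, sequenced single reads of 50 bases, trimmed them with Trim Galore 0.5.0, removed abundant sequences with Bowtie2 2.3.4.1, aligned to GRCm38 with STAR and counted with featureCounts (Subread 1.6.2). The deposited values are raw counts for each Ensembl gene, not normalised. Symbols, exons and coordinates came from GENCODE M21 (GRCm38), which matched all listed symbols except 1, Tmem2.

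Here counts were fitted with edgeR 4.0.16 (filterByExpr, TMM, quasi-likelihood F test, genotype as the only term, 6 libraries), with Benjamini-Hochberg adjustment over 16731 genes. Standard errors and 95% intervals were derived from the F statistic and are not adjusted over genes. Alternatives were RLE, DESeq2 1.42.0, limma-voom (limma 3.58.1), other filters, each library left out and a replicate block. The fit was tested on simulated counts. Members and lists were chosen with earlier results of these data known. Named genes were the members, the extremes of each list, Mbp, listed genes past the threshold and the 5 genes nearest to the member with the largest change. Some genes under this rule, and the results that need them, are not reported here. P-values measure the spread between brains. Replicates differed by more than sampling noise (chi-square for each degree of freedom at least 3.42).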

Additional observations from a re-analysis of the deposited data

How the results depend on the processing

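The count of the 10 genes past the adjusted threshold was 0 under all 12 alternatives and with a 2-fold limit. Their median log2 fold change of -0.13 stayed negative, between -0.15 and -0.094 in the fits that left out a library, and the count whose groups did not overlap went from 3 to 5 there, since fewer libraries have to be apart. No share over all genes tested was computed for that count with a library left out. The estimates of 8 genes kept their sign under the 12 alternatives, those of Sox10 between -0.34 and -0.21 and those of Gpr17 between -0.29 and -0.16. Those of Pdgfra ran from -0.061 to 0.079 and those of Cspg4 from -0.13 to 0.097 in the fits without a library. Listed genes outside the 10 that passed numbered 5, and 13 with no filter on low counts, 9 with DESeq2, 9 with the replicate block and from 1 to 10 without a library (10 without mutant replicate 1). The cause was not tested. Deviations of control and mutant libraries with a shared number were correlated at 0.104, -0.0467 and 0.0804, and replicate numbers were therefore not read as pairs. All mutant log2 ratios of Gpr17 to Pdgfra lay below all control ratios, so leaving out a library could not reverse their difference. Its size then ran from -0.27 without mutant replicate 1 to -0.18 without mutant replicate 3. With 3 brains a group, the intervals of the 10 genes reach about 0.2 to either side on the log2 scale, without adjustment over genes. Differences smaller than the interval of their gene could not be told from 0. Larger ones could still miss the adjusted threshold in edgeR, as did Sox10 at -0.29 (adjusted p 0.21), Enpp6 at -0.39 (0.0794) and Nkx6-2 at -0.55 (0.269). Cldn11 at -0.49 passed it narrowly (0.0496). The count of 0 among the 10 genes therefore does not exclude differences above 0.2.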

Other observations

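Promoter windows of RefSeq (GRCm38.p6, 250 bases before to 50 after the start) were found for 7 of the 10 genes. The E-box CANNTG, a palindromic motif read on both strands, occurred in 4 of them, with 3 matches for Nkx2-2, 2 for Pdgfra, and 1 each for Vcan and Sox8, and in 72.3% of all 32851 windows. The SOX core ACAANG, searched on both strands, occurred in 2, those of Pdgfra and Olig2, and in 41.2% of all windows. These matches are a description of the letters.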
